A study of Mus musculus with 6 samples.

Results

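The genes described here encode proteins of the elastic fibre and of the microfibril, and they were taken by symbol from a fixed list of 10. All 10 were measured, among 13384 genes in the deposited table. Elastic fibres have a core of crosslinked elastin laid down on a scaffold of microfibrils, which are bundles of fibrillin with bound glycoproteins. Fibulins bring elastin, fibrillin and the lysyl oxidases together, and microfibrils also hold latent TGF-beta. In the heart these proteins lie in the walls of the coronary vessels, in the valves, in the epicardium and between the muscle bundles, and fibroblasts and smooth muscle cells are their main sources.

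Left ventricles came from 3 mice with a global cytoglobin knockout, labelled Cygb(-/-), and from 3 wild-type littermates, labelled Cygb(+/+). Angiotensin II, a peptide that raises blood pressure, was infused into the adult mice of both groups at 1.5 mg/kg/day over 2 weeks by subcutaneous osmotic pump, so the comparison is between genotypes in the infused heart and no animal without the hormone is used here. The deletion is in every cell, the labels give no strain, sex or age beyond adult, and each library of polyadenylated RNA came from 1 mouse. The question set by the design is which gene programmes of the stressed ventricle differ when cytoglobin, a globin of fibroblasts and vessel wall cells, is missing. Cygb itself was not analysed here, and the genotype was taken from the labels.

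Library totals ran from 23190864 to 30354857 counts. The ventricular myosin light chain gene Myl2 was at 4670 to 5170 CPM in knockout libraries and 4533 to 5344 CPM in wild-type libraries (CPM being counts scaled to library size, here with TMM factors). Of 7 ventricular muscle markers 5 were below 0 in the knockout, at a median of -0.092, while Ryr2 was at 0.70 (SE 0.16, edgeR adjusted p = 0.0722) with no overlap and was called higher by DESeq2 and without wild-type replicate 2. Libraries differed in other ways than genotype. Wild-type replicate 1 had a summed level of 783 CPM over 5 atrial muscle markers, against 54.8 to 63.3 CPM in knockout libraries and 71.8 and 103 CPM in wild-type replicates 2 and 3. Its 3 measured mesothelial markers summed to 41.5 CPM, against 11.3 to 16.2 CPM in knockout libraries and 17.7 and 19.3 CPM in wild-type replicates 2 and 3. Wild-type replicate 2 had the highest sum over 10 fibroblast markers, 3487 CPM, against 2132 to 2272 CPM in knockout libraries and 2598 and 2531 CPM in wild-type replicates 1 and 3. No measured marker was at 0 in any library.

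Every one of the 10 genes had a lower fitted level in knockout ventricles, but none passed the test over all genes. The median log2 fold change, knockout minus wild type, was -0.54 over the 10 genes and -0.0045 over all 13384. The share of genes with a negative value was 50.6% over the whole table. In edgeR's quasi-likelihood test with Benjamini-Hochberg adjustment over all genes, 0 of 10 passed 0.05 in either direction, where 0.0224% of all genes passed as lower and 0.0897% as higher. At an unadjusted p under 0.05, 6 of the 10 were lower and 0 higher, against 8.94% and 10.2% of all genes. Without wild-type replicate 2 only 2 of the 10 were lower at that threshold, where 2047 of all 13384 genes were. With an offset for GC content and gene length it was 3 of the 10, against 968 of 13384. All 3 knockout libraries lay below all 3 wild-type libraries for 4 of the 10, Fbln1, Fbln2, Fbln5 and Emilin1, and this held for 10.5% of all genes. DESeq2, which called 1.99% of all genes lower and 2.63% higher, called Eln, Fbln2 and Emilin1 lower. Limma-voom, which called 0.0374% lower and 0.0672% higher, called none of the 10.

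**Figure D1:**
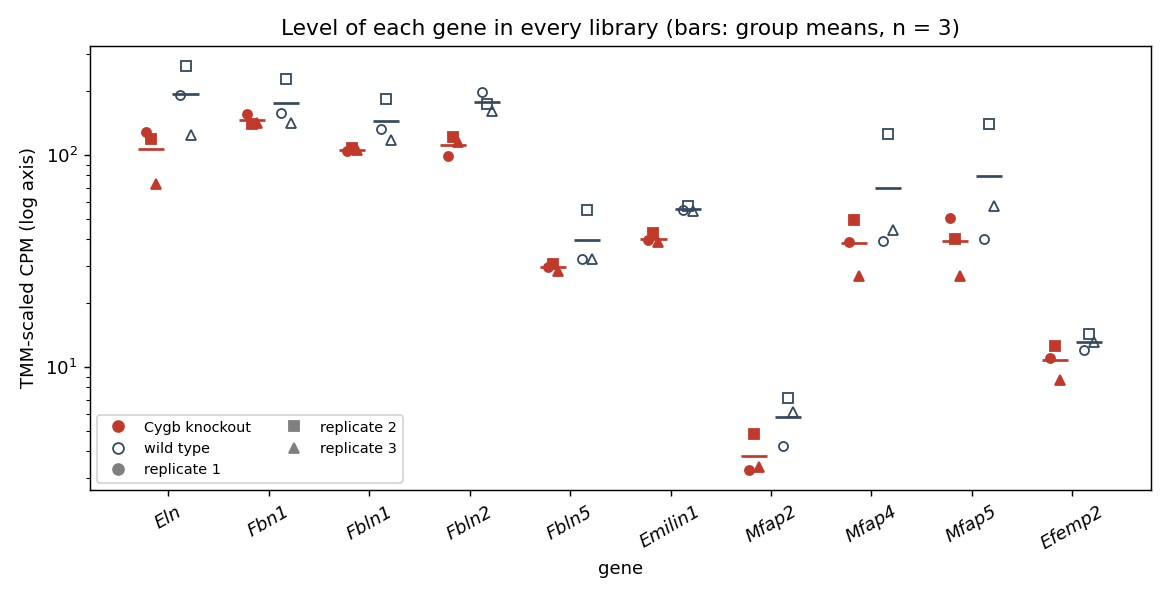
TMM-scaled CPM on a log axis for each of the 10 genes, with knockout libraries (filled) left of wild-type libraries (open), symbols for replicates and bars for group means (n = 3 each). Fbln2 and Emilin1 form separate bands in the 2 groups, whereas Mfap4 and Mfap5 stand apart in wild-type replicate 2 alone.

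Eln encodes tropoelastin, the monomer of the elastic core. It was at 128, 119 and 72.9 CPM in knockout libraries 1, 2 and 3, against 192, 262 and 125 CPM in wild-type libraries 1, 2 and 3. The groups overlapped, since knockout replicate 1 was just above wild-type replicate 3. Knockout ventricles averaged 106 ± 29.4 CPM and wild-type ventricles 193 ± 68.8 CPM (SD, n = 3 each). On the log2 scale the difference was -0.86 (SE 0.30, edgeR adjusted p = 0.194). When wild-type replicate 2 was left out the value was -0.56 (SE 0.30), and DESeq2 gave an adjusted p of 0.0176. With the offset for GC content and gene length it was -0.66 (SE 0.43, edgeR adjusted p = 0.555). Eln lies on chromosome 5 of GRCm38, from 134702593 to 134747323 on the minus strand. The annotation places an antisense gene, Gm30003, over 267 of its exonic bases, and with no strand setting known its reads cannot be told from those of Eln.

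Fbn1 encodes fibrillin-1, the backbone of the microfibril. Knockout libraries held 156, 140.2 and 142 CPM, against 158, 229 and 141 CPM in wild-type libraries. Apart from wild-type replicate 2 the 5 values lay close together, and the groups overlapped. The log2 fold change was -0.27 (SE 0.17, edgeR adjusted p = 0.391), and -0.028 (SE 0.12) without wild-type replicate 2. Fbn1 lies on chromosome 2 from 125300594 to 125507993, and 2442 of its exonic bases are shared with Gm9913 on the opposite strand, so its value is uncertain by that overlap. On the level per kilobase of exon, Eln over Fbn1 was 1.22, 1.27 and 0.770 in knockout libraries and 1.82, 1.71 and 1.32 in wild-type libraries. This ratio does not depend on library size, and the groups did not overlap. It is not corrected for GC content, which is 58.8% for Eln and 52.3% for Fbn1. With the GC content and length offset the log2 fold change was -0.66 for Eln and -0.43 for Fbn1. The ratio was chosen after values were seen, as 1 of 9 looked at and the 1 without overlap. It is therefore given with no test.

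Mfap2 and Mfap5 encode MAGP-1 and MAGP-2, small glycoproteins bound to fibrillin, and Mfap4 encodes a glycoprotein that binds elastin and fibrillin. Mfap5 was at 50.6, 39.9 and 26.9 CPM in knockout libraries, against 39.9, 140.0 and 57.3 CPM in wild-type libraries. Mfap4 was at 39.0, 49.1 and 26.7 CPM in knockout libraries, against 39.1, 126 and 44.2 CPM in wild-type libraries. Both genes were far higher in wild-type replicate 2 than in any other library, at 2.88 and 3.02 times the mean of the other wild-type libraries. The log2 fold changes were -1.01 for Mfap5 (SE 0.55, edgeR adjusted p = 0.388) and -0.86 for Mfap4 (SE 0.56, edgeR adjusted p = 0.455). They came to -0.31 (SE 0.28) and -0.11 (SE 0.23) when wild-type replicate 2 was left out. These 2 genes, first and second in size of fold change, thus had the widest intervals, from -2.44 to 0.41 for Mfap5 and from -2.29 to 0.56 for Mfap4 at 95%. Mfap2 was the gene with the lowest counts of the 10, down to 76 in a library, which puts the counting error alone at 11.5% there. Its levels were 3.27, 4.83 and 3.35 CPM in knockout libraries and 4.24, 7.09 and 6.09 CPM in wild-type libraries, and the log2 fold change was -0.61 (SE 0.25, edgeR adjusted p = 0.222). Mfap2 lies on chromosome 4 from 141010418 to 141015984, Mfap4 on chromosome 11 from 61485431 to 61488900 and Mfap5 on chromosome 6 from 122505845 to 122529290. Mfap4 shares 89 exonic bases with Mapk7 on the opposite strand.

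Fbln2 encodes fibulin-2, which sits where elastin meets the microfibril and also in basement membranes. It had the smallest p of the 10 genes and ranked 50 of 13384. Its levels were 98.4, 121 and 115 CPM in knockout libraries, against 198, 173 and 161 CPM in wild-type libraries. The groups were apart, and wild-type replicate 2 was the middle one of its group here. Knockout ventricles averaged 111 ± 11.6 CPM and wild-type ventricles 177 ± 19.0 CPM (SD, n = 3 each), a level 1.59-fold lower in the knockout (log2 fold change -0.67, SE 0.13, edgeR adjusted p = 0.0581, 95% interval -0.96 to -0.39). Without wild-type replicate 2 it was -0.68 (SE 0.13) and passed (edgeR adjusted p = 0.00975), in a fit where 6.39% of all genes passed as lower and 7.25% as higher. Over 16 alternatives its log2 fold change lay between -0.74 and -0.55, and its adjusted p between 0.000717 with DESeq2 and 0.300 in edgeR without knockout replicate 3. Fbln2 lies on chromosome 6 from 91212455 to 91272540.

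Fbln1 encodes fibulin-1, found within the elastin core. It was at 104, 108 and 106 CPM in knockout libraries, against 133, 184 and 117 CPM in wild-type libraries. The knockout libraries agreed to within a coefficient of variation of 2.03%, against 24.1% in the wild type, and the groups did not overlap. The log2 fold change was -0.45 (SE 0.16, edgeR adjusted p = 0.159), and -0.23 (SE 0.11) without wild-type replicate 2. Fbln5 encodes fibulin-5, an organiser of elastic fibre assembly that binds integrins. It was at 29.7, 30.7 and 28.2 CPM in knockout libraries and 32.1, 54.7 and 32.2 CPM in wild-type libraries. Wild-type replicate 2 stood above the other 5 libraries, and the remaining wild-type values were just above the knockout ones. The log2 fold change was -0.42 (SE 0.19, edgeR adjusted p = 0.255), and -0.12 (SE 0.12) without that library. Efemp2 encodes fibulin-4, which tethers lysyl oxidase to tropoelastin. It was at 11.0, 12.5 and 8.64 CPM in knockout libraries and 11.9, 14.3 and 13.1 CPM in wild-type libraries, with overlapping groups (log2 fold change -0.29, SE 0.18, edgeR adjusted p = 0.384). Its value was -0.16 without knockout replicate 3, the library with its lowest level. Fbln1 lies on chromosome 15 from 85205949 to 85286535, Fbln5 on chromosome 12 from 101746565 to 101819055 and Efemp2 on chromosome 19 from 5473954 to 5482517, where it shares 173 exonic bases with Mus81 on the opposite strand.

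Emilin1 encodes EMILIN-1, a glycoprotein at the surface between elastin and microfibrils that also restrains the processing of pro-TGF-beta. It was at 39.6, 42.6 and 38.6 CPM in knockout libraries, against 54.9, 57.5 and 54.4 CPM in wild-type libraries. Its spread within groups was the smallest of the 10 genes, at an SD of 0.060 on the log2 scale, and the groups were well apart. The log2 fold change was -0.47 (SE 0.12, edgeR adjusted p = 0.0900), a level 1.38-fold lower in the knockout. It passed without wild-type replicate 2 (-0.43, SE 0.12, edgeR adjusted p = 0.0296). Emilin1 has the highest GC content of the 10 genes, at 61.1% of its longest transcript, and with the dependence of each library on GC content and gene length modelled as an offset the value was -0.18 (SE 0.13, edgeR adjusted p = 0.559). In that same fit Fbln2, at 57.0% GC, was at -0.55 (SE 0.10) and passed (edgeR adjusted p = 0.0445), where 0.164% of all genes passed as lower and 0.202% as higher. Under that offset Eln was at -0.66, Fbn1 at -0.43, Mfap2 at -0.31 and Efemp2 at -0.16. The median GC content was 54.4% over the 10 genes and 49.9% over all genes. Emilin1 lies on chromosome 5 from 30913402 to 30921277.

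**Figure D2:**
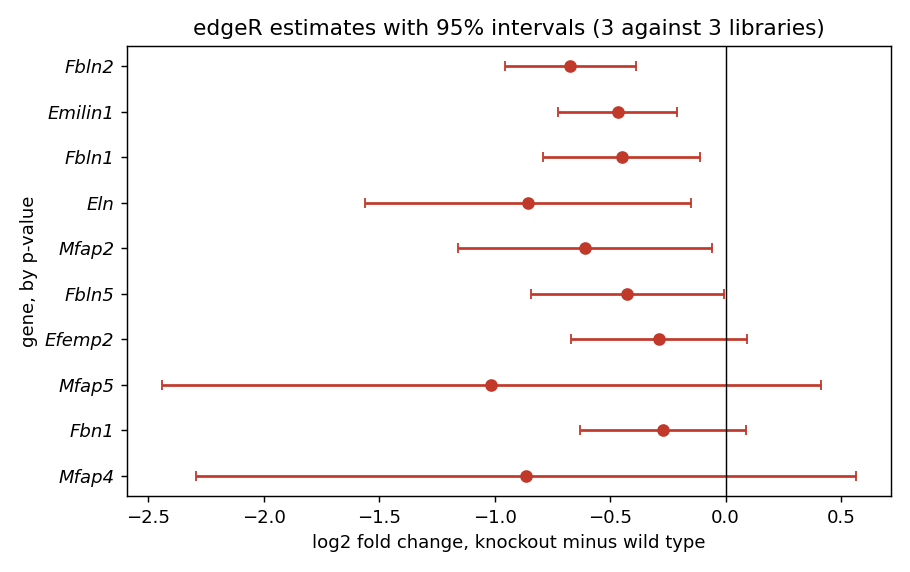
Log2 fold change, knockout minus wild type, of each gene with its 95% interval from edgeR (3 against 3 libraries), ordered by p-value from the top. All 10 estimates are below 0, and the intervals of Efemp2, Mfap5, Fbn1 and Mfap4 include 0.

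Promoter windows, 250 bases before to 50 after a start site, were found for 7 of the 10 genes in RefSeq (GRCm38.p6). Shown are the windows of Fbln2 and Emilin1, the pair of smallest p whose groups did not overlap, and of Fbn1, whose groups overlapped. Capitals mark matches on either strand to any of the motifs searched. The GC box, which binds Sp1 and its relatives, was searched as GGGCGG. The box of the nuclear factor Y was searched as CCAAT. The SMAD box, bound by the transcription factors of TGF-beta signalling, was searched as CAGACA. A search for the TATA box as TATAAA found no match in these windows, and neither did one for the AP-1 site, spelled TGANTCA, or for the TEAD site, spelled CATTCC.
Fbln2: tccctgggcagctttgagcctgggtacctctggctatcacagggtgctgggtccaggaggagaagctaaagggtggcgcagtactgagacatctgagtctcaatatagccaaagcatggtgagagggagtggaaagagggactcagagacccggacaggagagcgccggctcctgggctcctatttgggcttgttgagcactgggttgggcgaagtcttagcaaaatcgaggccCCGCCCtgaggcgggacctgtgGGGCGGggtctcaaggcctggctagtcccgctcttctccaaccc
Emilin1: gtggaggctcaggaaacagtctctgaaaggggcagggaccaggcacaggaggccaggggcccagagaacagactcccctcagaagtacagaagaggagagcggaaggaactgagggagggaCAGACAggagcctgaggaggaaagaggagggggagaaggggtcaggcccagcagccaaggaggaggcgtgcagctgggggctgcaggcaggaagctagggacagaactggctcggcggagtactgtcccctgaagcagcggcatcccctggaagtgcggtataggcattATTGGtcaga
Fbn1: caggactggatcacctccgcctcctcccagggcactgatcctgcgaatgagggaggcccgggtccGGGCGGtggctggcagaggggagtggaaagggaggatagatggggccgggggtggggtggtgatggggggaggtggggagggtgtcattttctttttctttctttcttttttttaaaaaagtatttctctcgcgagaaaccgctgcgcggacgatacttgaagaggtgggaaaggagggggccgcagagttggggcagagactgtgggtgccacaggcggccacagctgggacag

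The Fbln2 window is chr6:91212514-91212813 on the plus strand, with 2 GC boxes, 1 on each strand, beside the start site. The Emilin1 window is chr5:30913536-30913835 on the plus strand, with a SMAD box before the start site and, after it, a CCAAT box read on the other strand. The Fbn1 window is chr2:125506389-125506688 on the minus strand, with 1 GC box. Over the 12 windows of the 7 genes, some of which overlap, 8 held a GC box, 5 a SMAD box and 3 a CCAAT box. Among 13197 windows of measured genes the shares were 61.5% for the GC box, 16.1% for the SMAD box and 37.3% for the CCAAT box. They were 7.4% for the TATA box and 5.09% for the AP-1 site, held by 0 of the 12, and 12.5% for the TEAD site, held by 1, that of Mfap2. A match describes these letters alone.

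Levels of different genes were set in order per kilobase of annotated exon, a scale that depends on which exons the authors counted. In knockout ventricles Fbln1 was first at a mean of 24.2 CPM per kilobase, followed by Mfap4 at 19.9, Fbln2 at 17.5, Eln at 13.2, Fbn1 at 12.0, Mfap5 at 10.9, Emilin1 at 8.15, Fbln5 at 4.27, Mfap2 at 3.15 and Efemp2 at 2.83. Neighbours in that order overlapped over the 3 libraries except Emilin1 with Fbln5 and Fbln5 with Mfap2. In wild-type ventricles the means were 36.3 CPM per kilobase for Mfap4, 33.1 for Fbln1, 27.8 for Fbln2, 23.8 for Eln, 22.0 for Mfap5, 14.5 for Fbn1, 11.3 for Emilin1, 5.74 for Fbln5, 4.80 for Mfap2 and 3.46 for Efemp2. Here Emilin1 with Fbln5 was the only pair of neighbours without overlap. Mfap4 headed the wild-type order by wild-type replicate 2 alone, at 65.5 CPM per kilobase there against 20.3 and 23.0 in the other wild-type libraries, where it was below Fbln1. Summed over the 10 genes, the level per kilobase was between 101 and 127 in knockout libraries and between 142 and 254 in wild-type libraries.

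Across libraries the genes were alike in part only. Wild-type replicate 2 was the highest of 6 libraries for 9 of the 10 genes, Fbln2 being the exception, and knockout replicate 3 was the lowest for 6. Emilin1 was only slightly higher in wild-type replicate 2, at 57.5 CPM, than in wild-type replicates 1 and 3, at 54.9 and 54.4 CPM. With each gene centred on its own mean, the median over the 10 genes was -0.21, -0.16 and -0.37 on the log2 scale in knockout libraries 1, 2 and 3, and 0.0088, 0.60 and 0.045 in wild-type libraries 1, 2 and 3. The 10 fibroblast markers, with 8 of 10 below 0 in the knockout, moved with it: their median was -0.14, -0.062 and -0.21 in knockout libraries and -0.071, 0.55 and -0.099 in wild-type libraries. The direction of their median rests on wild-type replicate 2. Without it 4 of 10 fibroblast markers were below 0, while all 10 elastic fibre genes stayed below 0. The median fold change of the markers was then 0.079 on the log2 scale, where with all libraries it was -0.37. Single markers did not all follow that median. Without that library Gsn and Pi16 passed as lower and Ddr2 as higher, where 6.39% and 7.25% of all genes did. With all libraries DESeq2 called Tcf21, Gsn and Pi16 lower, where it called 1.99% of all genes lower. Knockout libraries lay below wild-type libraries without overlap for 3 of the 10 markers, against 10.5% of all genes. Subtracting the fibroblast marker median from the median of the 10 genes left -0.070, -0.10 and -0.16 in knockout libraries, against 0.080, 0.054 and 0.14 in wild-type libraries. Wild-type replicate 2, which stood apart as highest on both medians, had the lowest wild-type value on the difference. The difference is a description and was given no test. In bulk tissue, fewer cells of a type and less RNA per cell cannot be told apart, and the part of fibroblast content in the result was not tested.

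Smooth muscle cells are the other main source of elastin. All 8 of their markers were below 0, at a median of -0.41 on the log2 scale, and 0 passed the test in edgeR. At an unadjusted p under 0.05, 4 were lower, against 8.94% of all genes. Without wild-type replicate 1, 6 of 8 were below 0, at a median of -0.29, and under the GC content and length offset 7 of 8, at -0.26. Without wild-type replicate 2, Acta2, Myl9 and Des passed as lower in edgeR, in a fit where 6.39% of all genes did. The summed level was 2234, 2869 and 2471 CPM in knockout libraries, against 3534, 2940 and 3607 CPM in wild-type libraries. The sums did not overlap, but Des, which cardiomyocytes also express, made up most of them, at 1964 CPM in knockout replicate 1 and 2592 CPM in wild-type replicate 2. On the median of the 8 centred markers the groups overlapped, at -0.43, -0.012 and -0.23 in knockout libraries and 0.66, 0.071 and -0.024 in wild-type libraries. Wild-type replicate 1, highest on that median, was also the library of the highest Fbln2 level. That library was highest too on the medians of the pericyte (0.41), endothelial (0.32), valve (0.46), atrial (3.3) and mesothelial (1.4) markers. Pericyte markers summed to 635 to 663 CPM in knockout libraries and 638 to 758 CPM in wild-type libraries. Endothelial markers summed to 919 to 1141 CPM in knockout libraries and 1006 to 1453 CPM in wild-type libraries. Of 7 pericyte markers 5 were below 0 (median -0.36), and of 7 endothelial markers 6 (median -0.081). At an unadjusted p under 0.05, 4 pericyte markers were lower and 1 higher, and 3 endothelial markers were lower. Without wild-type replicate 1, 1 of each list was lower at that threshold. Without wild-type replicate 2, Kcnj8, Cspg4, Pdgfrb and Vtn passed as lower and Rgs5 as higher. Kdr, Tie1 and Egfl7 passed as lower there too. Markers of macrophages summed to 193 to 217 CPM in knockout libraries and 169 to 198 CPM in wild-type libraries, and those of ventricular muscle to 52299 to 62498 CPM in knockout libraries and 52837 to 71090 CPM in wild-type libraries. The 3 measured markers of valve and endocardium summed to 57.0 to 67.5 CPM in knockout libraries and 48.1 to 82.5 CPM in wild-type libraries, and the sums of these 5 lists overlapped between the groups. The fibroblast, smooth muscle, atrial and mesothelial sums did not overlap. Of the fibroblast sums, Gsn alone made up 972 to 1005 CPM in knockout libraries and 1313 to 1377 CPM in wild-type libraries. On the median of the 10 centred fibroblast markers the groups overlapped, with knockout replicate 2 (-0.062) above wild-type replicates 1 (-0.071) and 3 (-0.099). The part of these cells in the result was not tested.

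**Figure D3:**
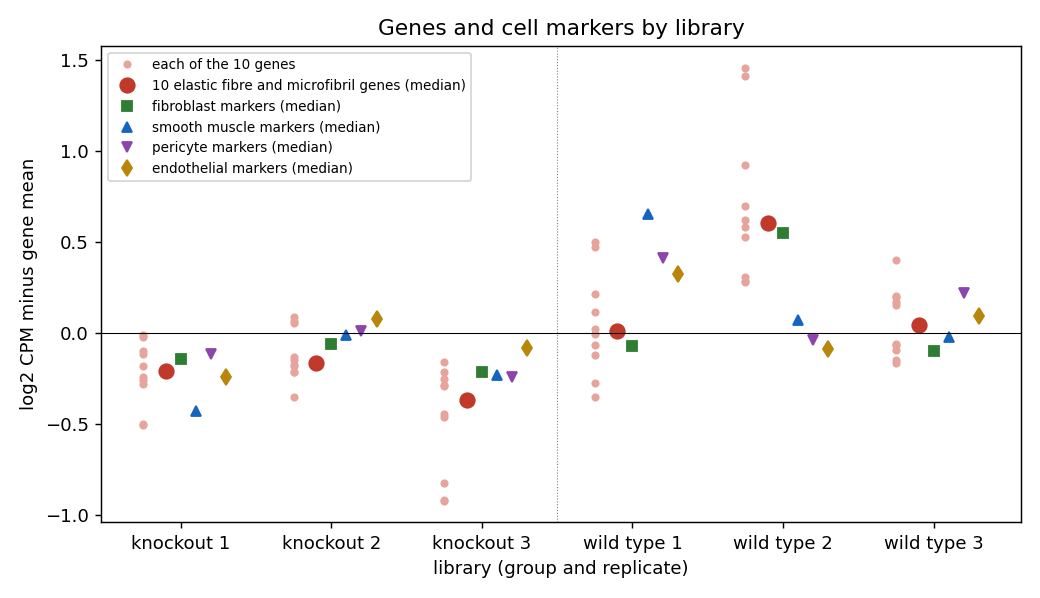
Log2 CPM minus each gene's mean over the 6 libraries, by library, for the 10 genes (small points), their median (large circles) and the medians of 4 lists of cell type markers. In wild-type replicate 2 the gene median (0.60) and the fibroblast marker median (0.55) stand apart together. The smooth muscle, pericyte and endothelial medians are highest in wild-type replicate 1.

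Leaving out wild-type replicate 2 brought the median over the 10 genes to -0.27. Fbln2 and Emilin1 hardly moved, at -0.68 and -0.43. The other genes were nearer to 0 than with all libraries, with Eln at -0.56, Mfap2 at -0.43, Mfap5 at -0.31, Fbln1 at -0.23, Efemp2 at -0.21, Fbln5 at -0.12, Mfap4 at -0.11 and Fbn1 at -0.028. Fbln2 and Emilin1 passed in that fit. With each of the other 5 libraries left out in turn, the median stayed between -0.62 and -0.48 and 0 of 10 genes passed.

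**Figure D4:**
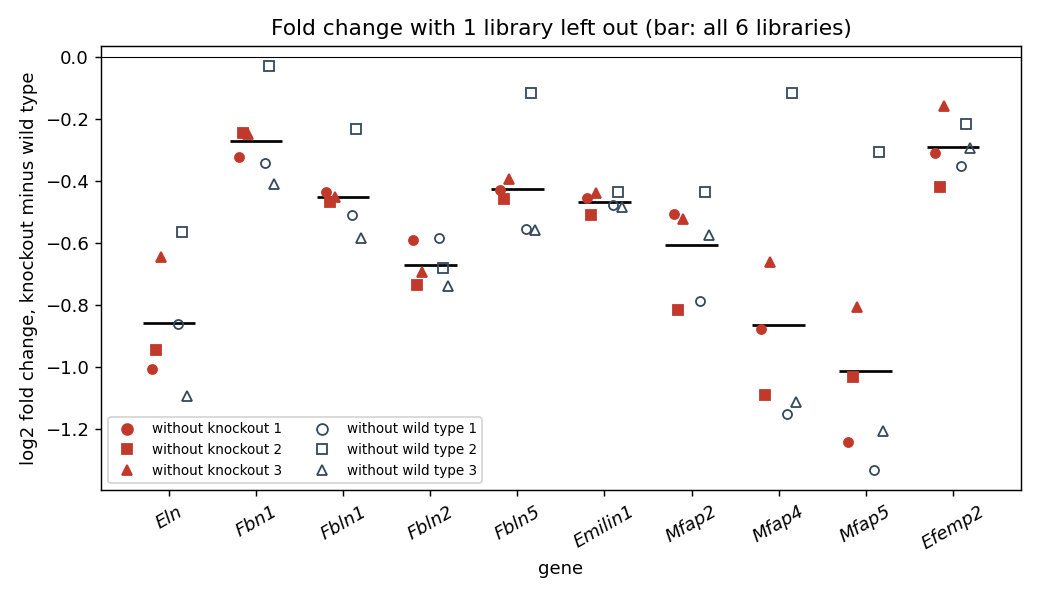
Log2 fold change, knockout minus wild type, of each gene with all 6 libraries (bar) and with 1 library left out (filled symbols, a knockout library left out; open symbols, a wild-type library left out). Open squares, the fits without wild-type replicate 2, are the ones nearest to 0 for 8 genes, all but Fbln2 and Efemp2.

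Over the rest of the pathway, 52 of 56 listed genes were measured, and 36 of the 52 were below 0, and their median was -0.25. Without wild-type replicate 2 the median was -0.12, with 29 of 52 below 0. None passed over all genes in either direction in edgeR's test. At an unadjusted p under 0.05, 14 were lower and 6 higher, against the 8.94% and 10.2% of all genes given above. Knockout libraries lay below wild-type libraries without overlap for 13 of the 52 and above them for 3, where the shares over all genes were 10.5% and 11.8%. DESeq2 called 7 of them lower.

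Of 7 genes for crosslinking, 5 were below 0, with a median of -0.14, but without wild-type replicate 2 the median was 0.18 with 3 below 0. Loxl1, the lysyl oxidase relative that fibulin-5 guides to elastin, was at 61.6, 61.5 and 44.0 CPM in knockout libraries, against 84.6, 117 and 88.2 CPM in wild-type libraries. The groups were apart (log2 fold change -0.79, SE 0.17, edgeR adjusted p = 0.0634). It passed without wild-type replicate 2 (-0.63, SE 0.15, edgeR adjusted p = 0.0195), and its adjusted p lay between 0.00184 and 0.457 under the 16 alternatives, with a value of -0.51 under the GC content and length offset. Lox, the founding lysyl oxidase, had another pattern. Its levels were 12.3, 9.82 and 7.19 CPM in knockout libraries, against 5.72, 32.5 and 6.68 CPM in wild-type libraries. Wild-type replicate 2 was far above all others, and every knockout library was above the remaining wild-type libraries. The log2 fold change was -0.61 (SE 0.80, edgeR adjusted p = 0.715), and 0.66 (SE 0.23, edgeR adjusted p = 0.0741) without that library. Loxl3 was at -0.65 (SE 0.30). Atp7a, the copper pump that loads lysyl oxidases, was at 14.0, 11.8 and 12.2 CPM in knockout libraries and 7.08, 11.0 and 7.93 CPM in wild-type libraries, with no overlap (0.55, SE 0.19, edgeR adjusted p = 0.162).

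Latent TGF-beta binding proteins share the fold of fibrillin and attach to microfibrils. With the TGF-beta ligands themselves, 6 of 7 genes were below 0 and the median was -0.50. Ltbp4, which also guides fibulin-5 to elastic fibres, was at 417, 497 and 494 CPM in knockout libraries, against 743, 536 and 689 CPM in wild-type libraries. The groups did not overlap (log2 fold change -0.48, SE 0.15, edgeR adjusted p = 0.121), and the value was -0.21 (SE 0.094) with the GC content and length offset. Ltbp3 was at 56.2, 61.2 and 58.5 CPM in knockout libraries and 89.0, 93.9 and 75.7 CPM in wild-type libraries (-0.56, SE 0.13, edgeR adjusted p = 0.0726). Both passed without wild-type replicate 2, at edgeR adjusted p-values of 0.0101 for Ltbp4 and 0.0224 for Ltbp3. Tgfb1, named after its values were seen, also passed as lower in that fit. Ltbp2 repeated the pattern of Mfap4 and Mfap5, at 17.6, 20.4 and 14.9 CPM in knockout libraries, against 21.2, 84.6 and 24.0 CPM in wild-type libraries, just without overlap (-1.29, SE 0.63, edgeR adjusted p = 0.343). Ltbp1 was the 1 gene of this list above 0, at 59.3, 59.2 and 68.0 CPM in knockout libraries and 56.1, 45.2 and 51.1 CPM in wild-type libraries (0.29, SE 0.13, edgeR adjusted p = 0.249). Tgfb2 was at -0.62 (SE 0.26).

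Among other microfibril proteins 8 of 12 genes were below 0, with a median of -0.058, which turned to 0.10 with 5 below 0 when wild-type replicate 2 was left out. Bgn, the proteoglycan biglycan that binds elastin and microfibril proteins, was at 124, 153 and 107 CPM in knockout libraries, against 193, 329.5 and 177 CPM in wild-type libraries, with no overlap (-0.86, SE 0.23, edgeR adjusted p = 0.111). Hmcn1, a giant relative of the fibulins (0.59, SE 0.21), and Emilin2 (0.57, SE 0.22) were on the other side. Emilin2 was at 46.9, 38.2 and 51.1 CPM in knockout libraries and 32.6, 20.0 and 39.3 CPM in wild-type libraries, the reverse in sign of Emilin1. Neither passed (edgeR adjusted p = 0.174 for Hmcn1 and 0.193 for Emilin2). In the fit without wild-type replicate 2, Hmcn1 (0.81, edgeR adjusted p = 0.0285), Atp7a (0.76, edgeR adjusted p = 0.0165) and Adamtsl3 (0.79, edgeR adjusted p = 0.0407) passed as higher. Bgn (-0.52, edgeR adjusted p = 0.0353) and Adamtsl5 (-0.68, edgeR adjusted p = 0.00849) passed as lower in that fit. Of all genes 6.39% passed there as lower and 7.25% as higher. Of the ADAMTS family, 3 of 8 genes were below 0, with a median of 0.015 that changed sign when knockout replicate 1 (-0.085) was left out, and also without wild-type replicate 2 (-0.014) or 3 (-0.041), and Adamtsl5 (-0.54, SE 0.16), Adamtsl2 (-0.79, SE 0.27) and Adamtsl3 (0.59, SE 0.23) had the smallest p.

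Of 9 proteases and inhibitors 7 were below 0, with a median of -0.36. Leaving out wild-type replicate 2 turned this to 0.10 with 4 below 0, and in that fit Ctss and Timp3, named after their values were seen, passed as higher and 0 as lower. The gelatinase gene Mmp2 was at 94.1, 92.9 and 84.1 CPM in knockout libraries, against 117, 211 and 108 CPM in wild-type libraries (-0.69, SE 0.23, edgeR adjusted p = 0.156). Its activator Mmp14 was at -0.64 (SE 0.22), and Cst3, the cysteine protease inhibitor cystatin C, at -0.36 (SE 0.13). Of 9 receptor genes 7 were below 0, with a median of -0.22. The integrin genes Itgb5 (-0.41, SE 0.14), Itgb3 (-0.72, SE 0.28) and Itga5 (-0.37, SE 0.16) had the smallest p, none of them past the test (edgeR adjusted p from 0.151 to 0.219). In the fit without wild-type replicate 2, Itgb1, named after its values were seen, passed as higher and 0 receptor genes as lower. Under the GC content and length offset Itgb5 was at -0.23, Itga5 at -0.22, Cst3 at -0.12, Adamtsl5 at -0.34 and Hmcn1 at 0.28. Without wild-type replicate 2 Mmp2 was at -0.31, Adamtsl2 at -0.51, Ltbp2 at -0.35, Bgn at -0.52, Tgfb2 at -0.33, Loxl3 at -0.15 and Emilin2 at 0.34.

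**Figure D5:**
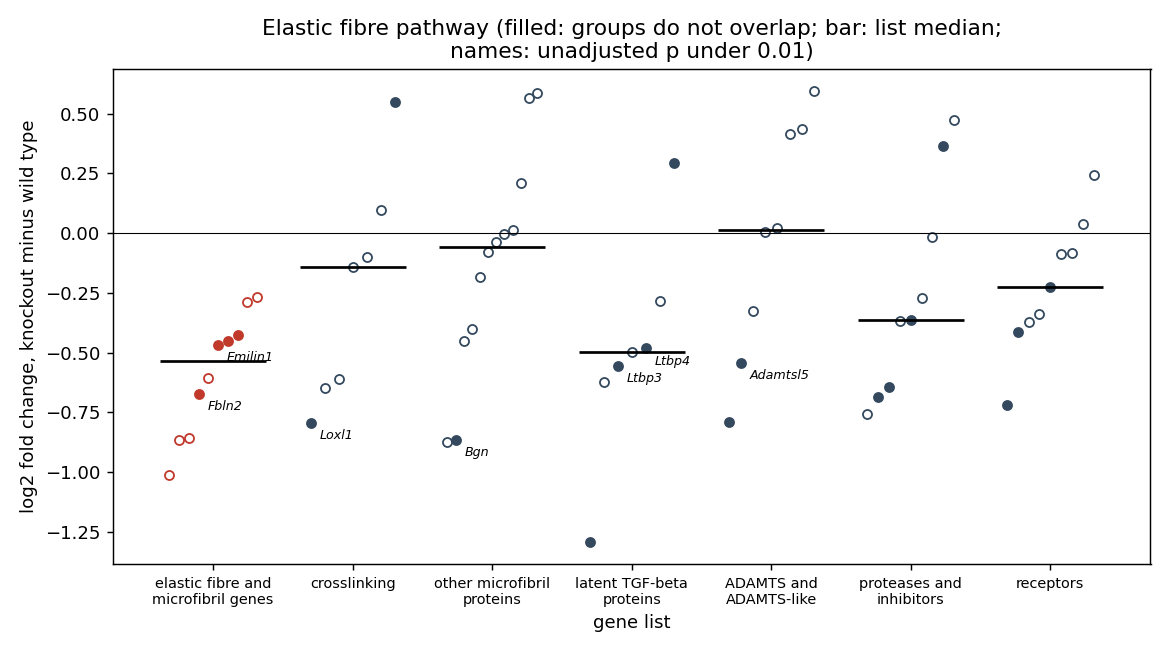
Log2 fold change, knockout minus wild type, of the 10 genes (left) and of 52 other genes of the pathway by list, with filled points where the groups do not overlap and bars for list medians. The medians run from -0.54 in the 10 genes and -0.50 in the latent TGF-beta list to 0.015 in the ADAMTS list, and no point passed the test over all genes.

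Outside the 10 genes, the gene whose centred log2 level was nearest to their median profile was Cercam, with a root mean square difference of 0.069 over the 6 libraries. Dap (0.072), Mxra7 (0.079), S100a6 (0.083) and Rcn3 (0.084) followed. Mxra7 was at 22.7, 23.1 and 21.3 CPM in knockout libraries, against 28.0, 42.0 and 31.6 CPM in wild-type libraries, again highest in wild-type replicate 2. Of the 10 genes themselves, Fbln5 (0.084) and Fbln1 (0.090) were nearest to the profile, and Mfap5 (0.46) and Mfap4 (0.41) farthest from it.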

How the data were processed

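Raw gene counts, whole numbers, were deposited by the authors as 1 table of 6 libraries. Per the submitters' processing notes the build was mm10 and DESeq2 was used. No source used here names the aligner, counter, annotation or strand setting. The lowest count of any gene in any library was 12. Of the columns, 0 belong to other samples.

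For 3 knockout and 3 wild-type libraries the main test was edgeR's quasi-likelihood F-test (edgeR 4.0.16, R 4.3.3), with TMM size factors, robust dispersions, no covariates and filterByExpr, which removed 0 genes. Tests were two-sided, with Benjamini-Hochberg adjustment over 13384 genes and a threshold of 0.05. Standard errors come from the test statistic, with a common biological CV of 0.166. Levels are TMM-scaled CPM. Alternatives were RLE and upper quartile size factors, no filter, a filter of 1 CPM in 3 libraries, DESeq2 1.42.0, limma-voom (limma 3.58.1), no robust estimation, a replicate block, an offset per library from natural splines (4 degrees of freedom) on the GC content and length of each gene's longest GENCODE M21 transcript, found for 97.9% of genes, both together, and each library left out. The methods were tested on simulated data. Positions and exon lengths are from GENCODE M21 (GRCm38).

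The 10 genes, the other lists and the tests were chosen with earlier results of these data known. Named were all 10 genes, up to 3 genes of smallest p in each of 6 pathway lists, Lox, Loxl1 and the LTBP genes, and the 5 genes nearest to the median profile. Myl2 and the marker sums come from 9 lists of cell type markers. Fold changes are knockout minus wild type. Each library is 1 mouse, and precision is limited by 3 animals per group.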

Additional observations from a re-analysis of the deposited data

How the results depend on the processing

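With all 6 libraries, 0 of the 10 genes passed as lower or higher in edgeR, 6 at an unadjusted p under 0.05. That 6 came to 2 without wild-type replicate 2 and to 3 under the GC content and length offset. DESeq2 gave 3 lower (Eln, Fbln2, Emilin1), the GC content and length offset 1 (Fbln2), and leaving out 1 library at a time 0 to 2 (Fbln2 and Emilin1 without wild-type replicate 2). None of the 10 was called higher under any of the 16 alternatives. All 160 recomputed values of the 10 genes were below 0. These values are not independent, since all come from the same 6 libraries. The fits with no filter or no robust estimation only repeated the main fold changes. Their median, -0.54 with all libraries, ran from -0.62 to -0.27 with 1 left out, and was -0.27 without wild-type replicate 2; the spread between replicates on this scale was 0.25. Among the 52 other genes of the pathway, 0 passed either way in edgeR, DESeq2 gave 7 lower, and leaving out 1 library gave 0 to 6 lower and 0 to 6 higher, the 6 and 6 without wild-type replicate 2, when 6.39% and 7.25% of all genes passed. Their median ran from -0.29 to -0.12 with 1 left out, within the spread between replicates (0.14), but the medians of the crosslinking, other microfibril, ADAMTS and protease lists changed sign without wild-type replicate 2. Lox ran from -0.996 to 0.66 with 1 library left out and reversed to 0.66 without wild-type replicate 2. The cause was not tested in any of these cases.

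Replicate numbers are shared by the groups, but same-numbered libraries did not deviate together (correlations -0.12, -0.076 and -0.15 for numbers 1, 2 and 3), so the numbers were not taken to pair animals. With the replicate number as a block, 2 of the 10 genes (Eln, Fbln2) and 2 of the pathway genes (Loxl1, Bgn) passed as lower, where 0.65% of all genes did. With block and offset together, 0 of the 10 and 1 pathway gene, Emilin2, higher, passed.

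With 3 animals a group, the 95% intervals of Mfap4 and Mfap5 span over 2 log2 units, and Mfap2 is further limited by counts.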
